A study of Mus musculus with 4 samples.

Results

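The genes described here encode the respiratory chain and the ATP synthase of mitochondria, in both genomes of the cell. They were taken by symbol, as every gene whose name begins with Nduf followed by a, b, c, s or v, with Cox4 to Cox8, Atp5, Uqcr, Sdha to Sdhd, mt-Nd, mt-Co, mt-Atp or mt-Cytb. This gave 110 of the 31053 genes in the count tables, 97 encoded in the nucleus and 13 in mitochondrial DNA. By complex, the list held 36 nuclear and 7 mitochondrial subunits of complex I with 8 assembly factors, 4 subunits of complex II with 4 assembly factors, and 8 nuclear and 1 mitochondrial subunit of complex III. Complex IV contributed 19 nuclear and 3 mitochondrial subunits, with the paralog Ndufa4l2 beside them, and ATP synthase 16 nuclear and 2 mitochondrial entries, with the factor Atp5s. Atp5o stood in the tables under 2 overlapping gene identifiers, so the list has 109 distinct symbols.

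The respiratory chain passes electrons from NADH (complex I) and succinate (complex II) through complex III to oxygen at complex IV, and ATP synthase, also called complex V, uses the resulting proton gradient to make ATP. Complex II is built from nuclear genes alone, and the other complexes need proteins from both genomes, so nuclear and mitochondrial transcription have to supply matching parts. Among immune cells, alveolar macrophages and resting lymphocytes are known for reliance on mitochondrial respiration, and neutrophils for few mitochondria and a metabolism led by glycolysis.

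The samples were living lung cells positive for the leukocyte surface protein CD45.2, sorted from C57BL/6J mice aged 10 weeks, and single cells were sequenced with a droplet kit that counts the 3-prime ends of transcripts as unique molecular identifiers (UMIs). Of 4 mice, 1 library each, 2 were wild type (WT), with the genotype Lmna-flox/flox Vav1-cre-/-, and 2 were knockouts, which differed in carrying the transgene (Lmna-flox/flox Vav1-cre+/-). Both groups thus had the floxed alleles of Lmna, the gene of the nuclear envelope proteins lamin A and C. Vav1-cre acts across blood cell lineages, so no cell type in the sort was an untargeted control. The comparisons ask how transcripts of the respiratory chain differed between immune cell classes and between genotypes.

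Sequences of mitochondrial DNA are shown first for a pair of genes whose transcripts differed between genotypes below. Both are short, and both run into the next gene on the same strand. The first is mt-Atp8 (204 bases, chrM:7766-7969, plus strand, GRCm38), which encodes a small membrane subunit of ATP synthase, and its last 43 bases, in capitals, are also the start of mt-Atp6. The second is mt-Nd4l (297 bases, chrM:9877-10173, plus strand), which encodes a small membrane subunit of complex I, and its last 7 bases, in capitals, open mt-Nd4. A read from an overlap can belong to either gene, so the counts of mt-Atp8 and mt-Nd4l are uncertain in that respect.
mt-Atp8: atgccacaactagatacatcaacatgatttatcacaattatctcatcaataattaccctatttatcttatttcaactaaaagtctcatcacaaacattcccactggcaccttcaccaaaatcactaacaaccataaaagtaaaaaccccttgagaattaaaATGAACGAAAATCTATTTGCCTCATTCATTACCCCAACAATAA
mt-Nd4l: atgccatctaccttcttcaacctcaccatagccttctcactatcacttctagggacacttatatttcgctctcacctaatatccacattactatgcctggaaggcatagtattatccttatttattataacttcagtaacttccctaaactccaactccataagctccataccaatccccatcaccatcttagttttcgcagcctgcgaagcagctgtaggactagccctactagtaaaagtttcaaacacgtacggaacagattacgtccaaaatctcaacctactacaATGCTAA

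The 4 libraries had 3860 to 4322 barcodes and 21780914 to 27045250 UMIs, and 2 to 7 barcodes were shared by any 2 libraries. Of 16528 barcodes, 14691 were kept, and 12782 of these fell into 9 classes by their marker genes, none of which is a respiratory chain gene. A class is called alveolar macrophage-like, B cell-like and so on after the marker list it matched. Another 354 cells matched more than 1 list and 126 matched none. The library WT 2 stood apart in holding 402 T cell precursor-like cells, of which knockout 2 had 11 and the others 0 (at most 3 cells at this depth), and these cells were in none of the 9 classes. Alveolar macrophage-like cells numbered 220 and 230 in WT but 52 and 33 in knockout mice, so their knockout values rest on fewer cells. Levels are given as CPM, a gene's UMIs per 1000000 UMIs of the same library and class. All 14 markers of the alveolar macrophage list were detected in the class named for it (22658 to 25898 CPM in sum). The same list assigned the cells, so this is no independent check of the class. Of its cells, 99.8% lay in 1 cluster.

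Lmna checked the labels. In alveolar macrophage-like cells it stood at 385 and 331 CPM in WT 1 and WT 2 and at 57.1 and 74.3 in knockout 1 and knockout 2, a log2 fold change of -2.39 (SE 0.18; edgeR adjusted p = 5.24e-10). The deleted part of Lmna is not given in the sources used here, so reads from its 3-prime end check the amount of transcript and not the deletion. In the other classes Lmna was at or below 81 CPM in every library, and of those tested it passed in the NK cell-like class, at 25.05, 25.8, 3.78 and 9.06 CPM (log2 fold change -1.90, SE 0.39, adjusted p = 0.0109).

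Transcripts of the nuclear members made up a similar part of the RNA in most classes and a small one in neutrophil-like cells. Summed over the 97 genes, they reached 18016, 19817, 20053 and 21414 CPM in alveolar macrophage-like cells, in the order WT 1, WT 2, knockout 1 and knockout 2, which is used throughout. The sums were 8298, 7637, 8063 and 8014 in neutrophil-like cells. The means of these classes, the highest and the lowest of the 9, were 19825 ± 1397 and 8003 ± 274 (SD, n = 4 libraries) and differed 2.48-fold. Between them, NK cell-like (19363 ± 1100), classical monocyte-like (18524 ± 507) and regulatory T cell-like cells (17646 ± 1314) overlapped the alveolar macrophage-like libraries. Nonclassical monocyte-like (15601 ± 248), CD8 T cell-like (15196 ± 273), CD4 T cell-like (14440 ± 446) and B cell-like cells (13364 ± 496) followed below all of these libraries, and neighbours among those 4 classes overlapped. No library of another class came near the neutrophil-like sums, the next class being 1.67-fold higher.

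The mitochondrially encoded members followed another order. Their sum was highest in B cell-like cells, at 72367, 72696, 75007 and 68131 CPM, and lowest in neutrophil-like cells, at 5447, 10713, 14903 and 12884. The means, 72050 ± 2865 and 10987 ± 4070, differed 6.56-fold. CD8 T cell-like (63128 ± 1327), CD4 T cell-like (62190 ± 2864) and regulatory T cell-like cells (60190 ± 3133) overlapped one another and lay below every B cell-like library, and alveolar macrophage-like cells stood at 53498 ± 1180. NK cell-like (40774 ± 1891), classical monocyte-like (35875 ± 1363) and nonclassical monocyte-like cells (32971 ± 1611) lay between these and the neutrophil-like cells. Cells above 10% mitochondrial UMIs had been removed, and this limit took out 6.22 to 10.8% of B cell-like cells and 0 to 5.35% of alveolar macrophage-like cells per library.

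**Figure D1:**
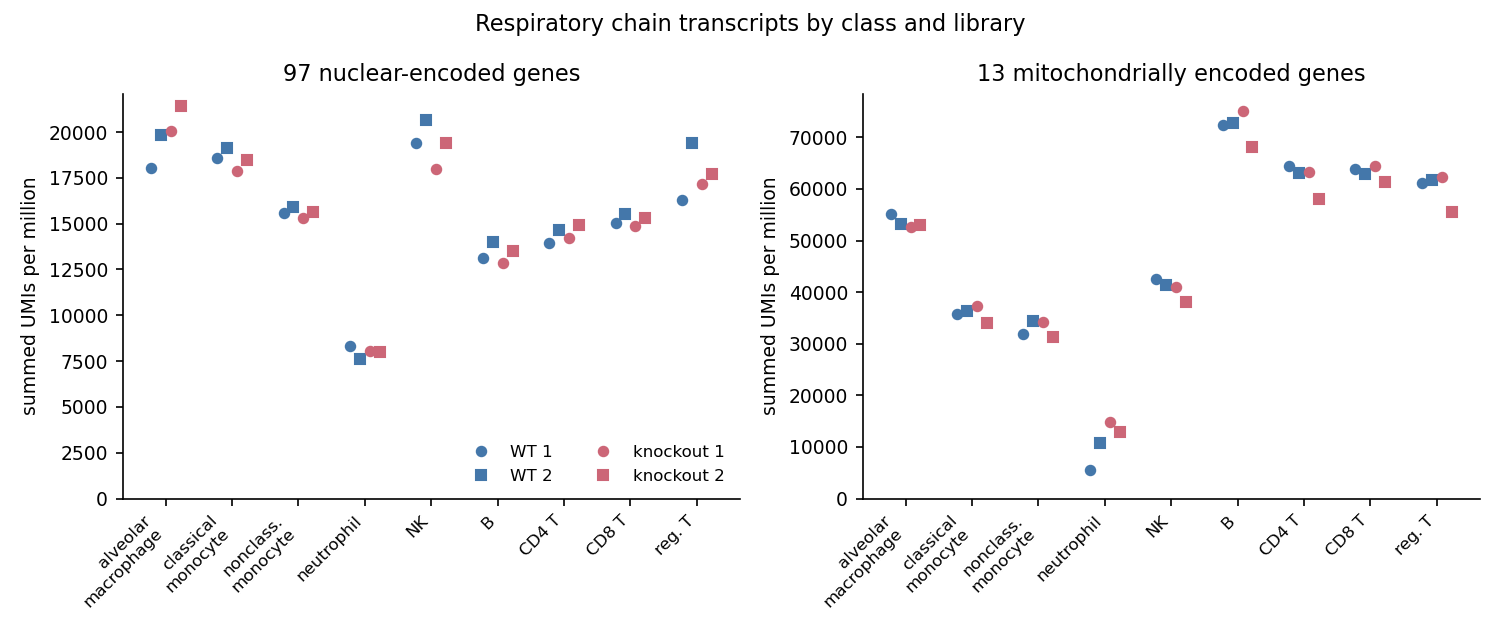
Summed CPM of the 97 nuclear-encoded (left) and 13 mitochondrially encoded (right) respiratory chain genes in 9 classes, with 1 point per library (blue WT, red knockout; circle library 1, square library 2). The nuclear sums reach 19825 on average in alveolar macrophage-like cells and the mitochondrial sums 72050 in B cell-like cells, and both are lowest in neutrophil-like cells.

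The balance between the genomes differed between classes. Mitochondrial UMIs exceeded nuclear ones 5.40 ± 0.35-fold in B cell-like cells, 4.31 ± 0.32-fold in CD4 T cell-like cells, 4.16 ± 0.15-fold in CD8 T cell-like cells and 3.43 ± 0.32-fold in regulatory T cell-like cells (SD, n = 4). The ratio was 2.71 ± 0.25 in alveolar macrophage-like cells, 2.11 ± 0.15 in NK cell-like cells, 2.11 ± 0.11 in nonclassical monocyte-like cells and 1.94 ± 0.10 in classical monocyte-like cells. In neutrophil-like cells it was 0.66, 1.40, 1.85 and 1.61. The share of each complex within the nuclear sum was much the same everywhere, from 26.9 to 28.6% for complex I, 2.0 to 2.6% for complex II, 8.6 to 11% for complex III, 26.8 to 31.2% for complex IV and 28.2 to 30.8% for ATP synthase, as means of the 9 classes.

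In neutrophil-like cells a small share of the cells held most of the mitochondrial UMIs in 3 of the 4 libraries, and in WT 1 it did not. The median cell had 0.255, 0.332, 0.402 and 0.370% mitochondrial UMIs in the 4 libraries. Cells above 2%, a limit chosen after the values were seen, made up 3.27, 9.81, 17.2 and 14.4% of the class and held 35.6, 67.2, 73.6 and 70.7% of its UMIs from the 13 genes. WT 1 was the lowest library in each of these values, and the WT and knockout libraries did not overlap in the sum, in the median or in the share of cells above 2%. Whether these cells account for the spread was not tested.

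Each class was then compared with the mean of the other 8, gene by gene, with edgeR across 10814 genes and library as a block, and 103 members were tested in every contrast. In neutrophil-like cells 71 members were lower (39.4% of all genes tested were called lower) and 19 higher (34.1% of all genes). All 13 mitochondrial genes were lower. The nuclear complexes were represented by 25 of 36 tested complex I subunits, 6 of 8 of complex III, 6 of 14 of complex IV and 10 of 15 of ATP synthase. These calls are relative to a scaling that raised the neutrophil-like values (TMM factors 0.557 to 0.628), and it left the median of all genes at -0.27. In plain CPM 99 of 103 members were below the mean of the other classes, and of the 19 called higher 4 were above it, namely Ndufb9, Atp5l, Ndufa7 and Cox8a.

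Complex I assembly factors and the subunit Ndufa5 had the lowest values in neutrophil-like cells. Ndufaf1, Ndufaf2, Ndufaf4 and Ndufaf5, which help build the membrane and peripheral arms of complex I, were at 0.432, 0.412, 1.04 and 0.199 CPM on average, against 11.2, 13.1, 27.7 and 7.65 in the other classes. Their log2 differences were -3.77, -3.92, -3.77 and -4.03 (adjusted p at most 1.63e-06). The neutrophil-like class held 1154042 to 1279469 UMIs per library. These 4 means thus rest on very few UMIs, and the size of the differences is uncertain. Of 12 assembly factors of complexes I and II, 9 were lower. Ndufa5, an accessory subunit of the peripheral arm, was at 4.31, 8.60, 3.47 and 3.99, against 77.5 in the other classes (log2 difference -3.02, SE 0.21, adjusted p = 1.14e-18). At the other end Ndufb9, an accessory subunit of the membrane arm, was at 217, 219, 307 and 240 against 182 (log2 difference 1.28, SE 0.07).

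In B cell-like cells the genomes diverged. All 13 mitochondrial genes were higher (25 members in all, with 39.8% of all genes called higher), with mt-Nd5 at 750, 651, 539 and 557 CPM against 343 (log2 difference 0.99, SE 0.07), and mt-Nd2 at 4192, 4109, 5011 and 4568 against 2517 (0.96, SE 0.13). At the same time 45 nuclear members were lower (26.5% of all genes), among them 12 of 14 complex IV subunits and 18 of 36 complex I subunits. Uqcrq, a small subunit of complex III, was at 134, 127, 117 and 119 against 207 (log2 difference -0.73, SE 0.07), and Cox5a, a matrix-facing subunit of complex IV, at 183, 216, 195 and 203 against 329 (-0.62, SE 0.06). Among the 12 nuclear members that were higher were 7 assembly factors, led by Sdhaf3 (9.57, 14.7, 12.9 and 15 against 6.70, log2 difference 1.15), which helps mature the iron-sulfur subunit of complex II.

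CD4 T cell-like and CD8 T cell-like cells also had all 13 mitochondrial genes higher, with 35 and 43 members higher in all (33.1 and 36.8% of all genes) and 30 and 23 lower (26.7 and 27.9%). The assembly factor Ndufaf4 was among the highest in both, at 33.4 ± 3.4 and 39.1 ± 4.0 CPM (log2 differences 1.001 and 1.25). Uqcr11, a small subunit of complex III, was lower in CD4 T cell-like cells (84.6 ± 11.7 against 151, log2 difference -0.73). Regulatory T cell-like cells had 21 members higher and 12 lower (20.8 and 15.8% of all genes), 3 of the higher ones mitochondrial; 11 were higher without WT 2, 13 without either knockout library, and 6 lower without knockout 2. In NK cell-like cells 29 were higher and 18 lower (29.5 and 23.3%), the latter with 8 mitochondrial genes. Scaling bears on the lower calls, since the TMM factors were 1.22 to 1.27 in the NK cell-like class: in plain CPM 84 of 103 members were above the other classes, and 12 of the 18 called lower were below them. In regulatory T cell-like cells 86 were above in plain CPM, and 10 of the 12 called lower were below. Ndufa4, a complex IV subunit despite its name, was at 567, 573, 505 and 492 in NK cell-like cells against 297 elsewhere (log2 difference 0.59, SE 0.06).

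Classical monocyte-like cells showed the reverse of the B cell-like pattern. There, 70 members were higher (36.2% of all genes), all of them nuclear, and 13 lower (25.9%), 9 of them mitochondrial. The higher members included 30 of 36 complex I subunits, 7 of 8 of complex III, 13 of 14 of complex IV and 13 of 15 of ATP synthase. Ndufc2, a complex I subunit of the membrane arm, was at 177, 192, 213 and 219 CPM against 106 (log2 difference 1.28, SE 0.06), Atp5c1, the gamma subunit of the rotor of ATP synthase, at 439, 481, 502 and 487 against 272 (0.96, SE 0.05), and Uqcrfs1, the Rieske iron-sulfur protein of complex III, at 180, 202, 262 and 217 against 129 (0.95, SE 0.06). Nonclassical monocyte-like cells had 23 members higher and 27 lower (33.0 and 21% of all genes), with 12 of the 13 mitochondrial genes lower and Ndufa11 the highest of the nuclear members (161 ± 11.7 against 111, log2 difference 0.82).

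Against the mean of the other classes, alveolar macrophage-like cells were higher in genes of both genomes. Their mean mitochondrial sum was nevertheless below those of the B cell-like, CD4 T cell-like, CD8 T cell-like and regulatory T cell-like classes. The mean of the other classes also included neutrophil-like cells, whose mitochondrial sum was the lowest at 10987 CPM. A contrast without neutrophil-like cells was not run. Of 103 members 65 were higher (38.7% of all genes) and 11 lower (30%), and 8 of the 65 were mitochondrial. The median log2 difference of the members was 0.29, against 0.05 over all genes. Sdhc, a membrane anchor of complex II, was at 111, 120, 110 and 133 CPM against 39.6 in the other classes (log2 difference 1.52, SE 0.08, adjusted p = 8.79e-24). Cox5a was at 488, 640, 782 and 824 against 268 (1.20, SE 0.06), Atp5g3, which encodes the ring subunit c of ATP synthase, at 302, 352, 283 and 336 against 142 (1.18, SE 0.06), and Uqcr11 at 290, 326, 257 and 314 against 125 (1.09, SE 0.06). The lowest were the assembly factor Ndufaf7 (9.85 ± 3.17 against 16.6, log2 difference -1.06), Sdhaf1, Uqcrh (435 ± 21.6 against 547, -0.45) and Cox7a2l (340 ± 34.2 against 446, -0.45).

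Several complex IV subunits and the c subunit of ATP synthase come as paralogs, some of them known for muscle or testis. Cox6b2, known as the testis form of the subunit that clamps the complex IV dimer, was highest among the 9 classes in alveolar macrophage-like cells, with 156, 199, 47 and 20 UMIs, or 42.5, 66.2, 70.7 and 33.8 CPM. Classical monocyte-like cells followed at 12.4 ± 1.8, and the other 7 classes were at or below 3.66 on average. Among classes too small or too uneven for the tests, the 77 epithelial cell-like cells held 0, 56, 11 and 3 UMIs of Cox6b2, and the T cell precursor-like cells of WT 2 held 92. The log2 difference was 4.58 (SE 0.22, adjusted p = 7.01e-24), and Cox6b2 made up 7.65, 10.6, 11.4 and 5.43% of the UMIs of Cox6b1 and Cox6b2 in alveolar macrophage-like cells. Cox7a1, the heart and muscle form of Cox7a, had 21, 35, 4 and 5 UMIs there (log2 difference 3.77, adjusted p = 2.73e-11) and 0 to 14 in each of the other 8 classes over all libraries.

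Cox6a2, the heart and muscle form of Cox6a, stood out in a class too small for the tests. The 87 plasmacytoid dendritic cell-like cells held 353, 237, 62 and 88 UMIs of it, or 1332, 763, 394 and 535 CPM, and 84.0, 80.9, 68.1 and 72.1% of their Cox6a UMIs. In the 9 tested classes Cox6a2 was between 0 and 9.46 CPM in every library. The 77 epithelial cell-like cells, which should be rare in a CD45.2+ sort, had 151 ± 21.3 CPM. Cox6a2 was 50, 38.5, 45.9 and 38.7% of their Cox6a UMIs. In the 57 interstitial macrophage-like cells its share was uneven, at 25.7, 2.56, 17.6 and 1.52%. Both WT libraries were above both knockout libraries in the plasmacytoid dendritic cell-like cells, which was not tested because 15 cells were left in each knockout library. Cox7b2, Cox8b and Cox8c had 0 UMIs in all 9 classes, and Cox4i2 at most 3 in any of them.

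The relative use of Cox7a2 and Cox7a2l differed between classes. Cox7a2l held 73.7 ± 2.0% of the Cox7a UMIs in CD4 T cell-like cells, 73.5 ± 2.6% in CD8 T cell-like cells and 67.5 ± 1.7% in B cell-like cells (SD, n = 4). It held 48.5 ± 1.3% in alveolar macrophage-like, 42.5 ± 7.7% in NK cell-like and 41.7 ± 3.4% in neutrophil-like cells. In NK cell-like cells the class contrast of Cox7a2l was -0.89 (SE 0.07) and in CD8 T cell-like cells 0.79 (SE 0.06).

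**Figure D2:**
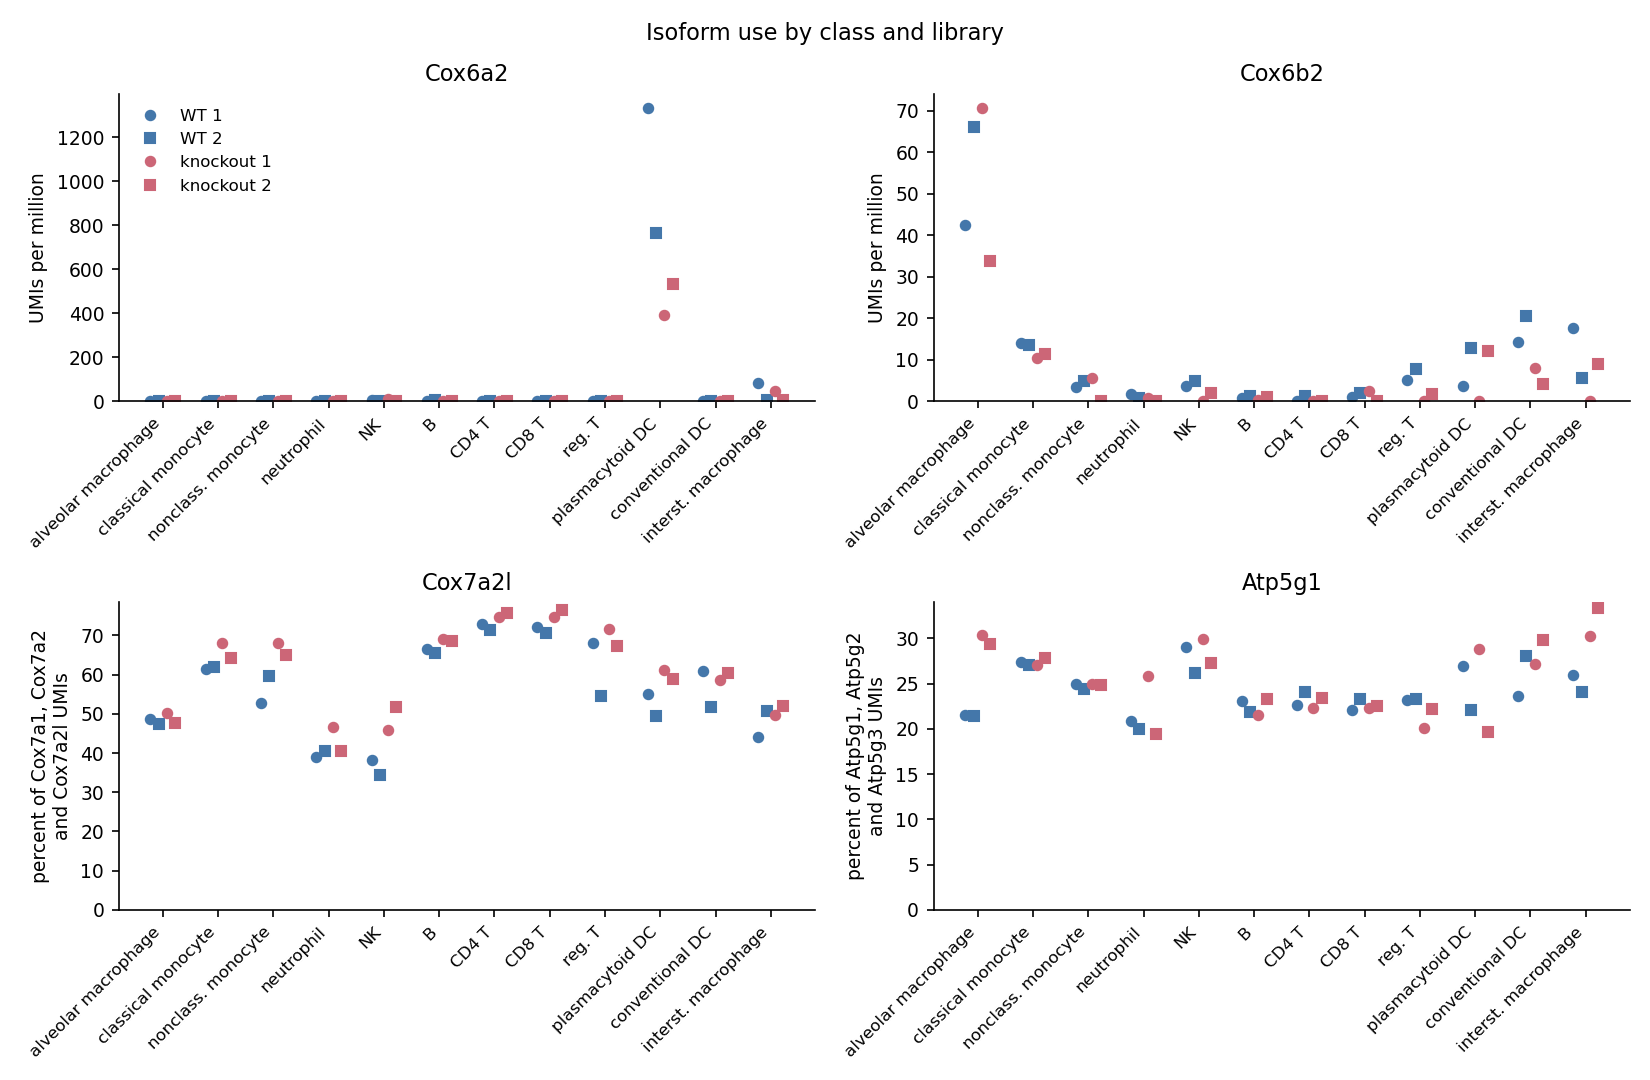
Isoform use by class and library (blue WT, red knockout; circle library 1, square library 2): CPM of Cox6a2 and Cox6b2, the percent of Cox7a UMIs from Cox7a2l, and the percent of Atp5g UMIs from Atp5g1. Cox6a2 is high in plasmacytoid dendritic cell-like cells, with 1332 CPM in WT 1, and Cox6b2 in alveolar macrophage-like cells. The epithelial cell-like cells, which also held both transcripts, are not plotted. Atp5g1 has a larger share in both knockout libraries of alveolar macrophage-like cells than in both WT ones.

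Between genotypes, the summed levels differed little. In alveolar macrophage-like cells the nuclear sum was 18916 ± 1274 in WT and 20734 ± 962 in knockout CPM (SD, n = 2 each), a log2 ratio of 0.13. The mitochondrial sum was 54194 ± 1467 and 52803 ± 302, a log2 ratio of -0.04. The nuclear sums of the other 8 classes had log2 ratios between -0.10 and 0.03, and the mitochondrial sums between -0.09 and -0.01 except in neutrophil-like cells (0.78). With 2 libraries against 2, an exact two-sided permutation test of a single value cannot give a p below 0.333, and sums over chosen members were not tested.

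Single genes differed most in alveolar macrophage-like cells. Of 103 members tested, 14 were higher in knockout cells (3.57% of all 8962 genes tested) and 4 were lower (2.99%). All 14 were nuclear. The median log2 fold change of the members was 0.18, against 0.01 over all genes, and 75 of the 103 were positive. With the doublets kept 7 were called higher, and with DESeq2 5. Both WT libraries mattered, since 1 member was called higher without WT 1 and 5 without WT 2, although all 14 stayed positive in each of these fits. With 1 library left in a genotype, such a fit takes its spread from the other genotype and assumes that the lone library varies alike.

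Complex II held the largest rise. Sdhd, a membrane anchor of complex II beside Sdhc, was at 86.9, 91.8, 188 and 166 CPM, a 1.98-fold rise (log2 fold change 1.06, SE 0.16, adjusted p = 7.27e-05). Both knockout libraries were far above both WT libraries. Sdhb, the iron-sulfur subunit, was at 89.3, 107, 135 and 142 (log2 fold change 0.56, SE 0.16, adjusted p = 0.0381), again without overlap. Sdha, the flavoprotein that oxidises succinate, was at 166, 166, 143 and 132 (adjusted p = 0.507) and Sdhc at 111, 120, 110 and 133 (adjusted p = 0.717). The subunits of complex II, which work in equal numbers, thus had fold changes of both signs, 2 of 4 passing.

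In ATP synthase 4 of 15 tested nuclear members rose and 1 fell. Atp5g1, a gene of the ring subunit c, was at 214, 235, 328 and 345 CPM (log2 fold change 0.65, SE 0.14, adjusted p = 0.00392). It made up 21.5, 21.5, 30.4 and 29.4% of the Atp5g UMIs of alveolar macrophage-like cells, while in classical monocyte-like cells the share was 27.4, 27.1, 27.0 and 27.9%. Atp5f1, the b subunit of the peripheral stalk, was at 298, 327, 478 and 444 (0.63, SE 0.13, adjusted p = 0.00393). The stalk subunits Atp5j and Atp5h were at 214, 229, 328 and 299 (0.57, adjusted p = 0.0113) and at 393, 447, 556 and 568 (0.49, adjusted p = 0.0235). All 4 were higher in both knockout libraries than in either WT library. Atp5e and Atp5l did not pass (log2 fold changes -0.02 and 0.02).

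In complex I 4 of 36 nuclear subunits rose and 1 fell. Ndufv2, an iron-sulfur subunit next to the NADH binding site, was at 98.6, 108, 167 and 139 CPM (log2 fold change 0.63, SE 0.16, adjusted p = 0.0154), and the accessory subunit Ndufa8 at 104, 118, 161 and 162 (0.61, SE 0.16, adjusted p = 0.0161). Ndufb6, of the membrane arm, was at 107, 132, 167 and 181 (0.61, SE 0.16, adjusted p = 0.0201). Ndufb9 rose as well (adjusted p = 0.0205). The groups did not overlap for any of the 4. Ndufa2, Ndufa6 and Ndufb7 did not pass (log2 fold changes -0.07, -0.10 and 0.31), and of 12 assembly factors 0 passed in either direction.

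Complexes III and IV gave 2 rises each, of 8 and 14 tested nuclear subunits. Cox5a was at 488, 640, 782 and 824 CPM (log2 fold change 0.58, SE 0.14, adjusted p = 0.0131), with WT 1 the lowest by a margin. Cox7b, a small complex IV subunit encoded on the X chromosome, was at 243, 241, 334 and 313 (0.48, SE 0.13, adjusted p = 0.0288). Uqcrfs1 was at 133, 137, 202 and 164 (0.51, adjusted p = 0.0453) and Uqcrb, a subunit of complex III near the quinone site, at 276, 331, 439 and 360 (0.47, adjusted p = 0.0493). Cox4i1, the entry subunit of complex IV assembly, was at 953, 1036, 1093 and 1240 and did not pass (0.30, adjusted p = 0.168), and neither did Cox8a (0.26) nor Uqcrh (0.17).

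**Figure D3:**
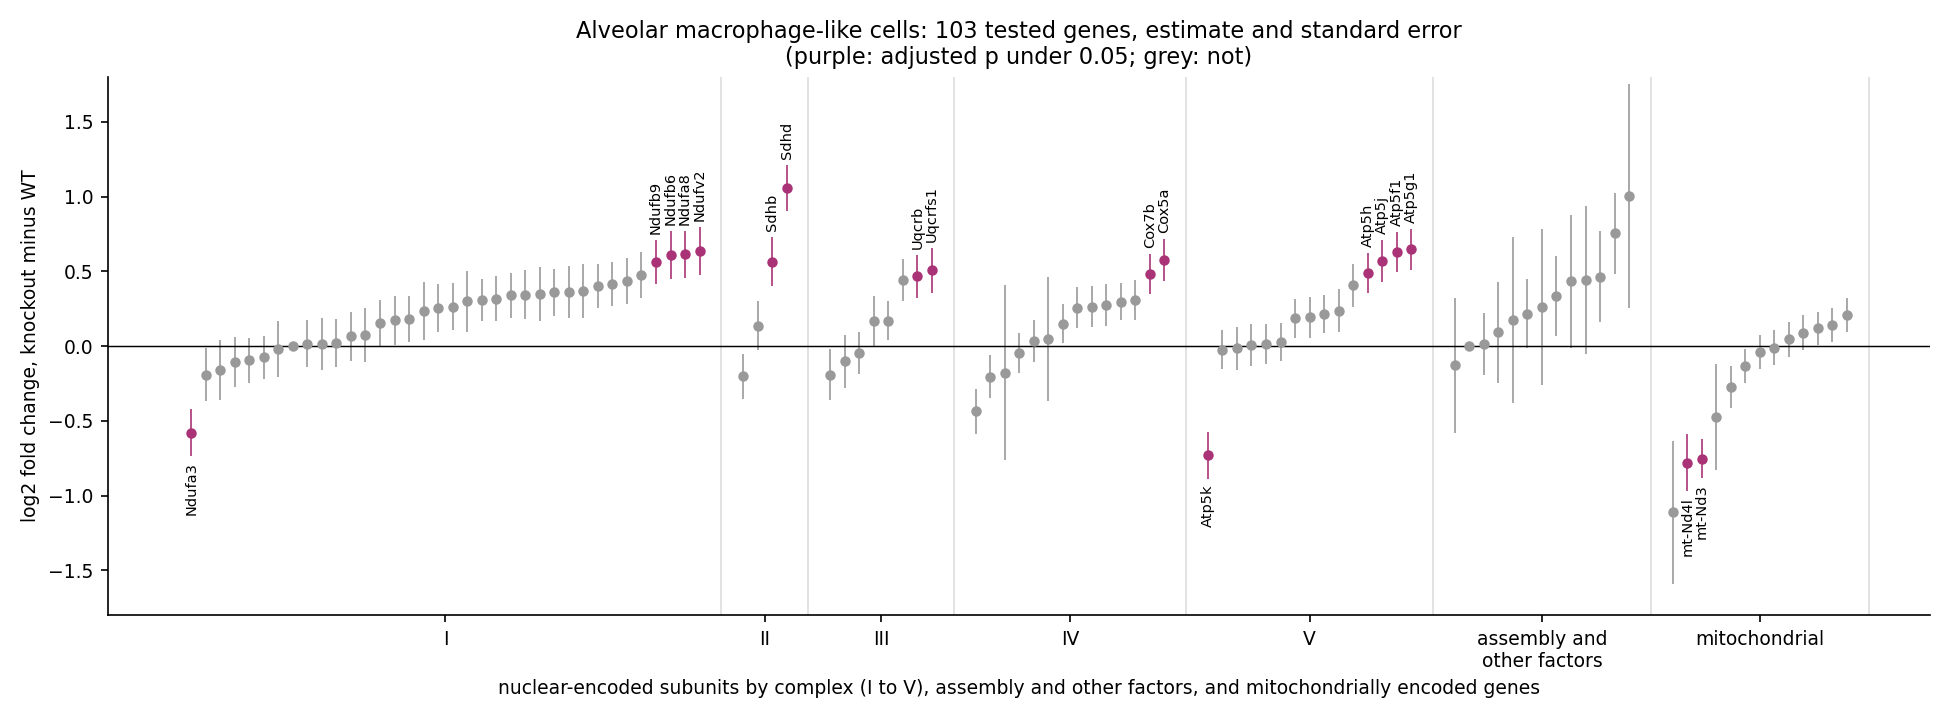
Log2 fold change (knockout minus WT) with its standard error for the 103 members tested in alveolar macrophage-like cells, grouped by complex and ordered by value; purple points had an adjusted p under 0.05, and 2 points whose estimate was near 0 have no bar. Of the nuclear subunits most points lie above 0, with Sdhd the highest at 1.06, and the 4 called below 0 are Ndufa3, Atp5k, mt-Nd3 and mt-Nd4l.

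The mitochondrial genes did not follow. Most stayed close to 0: the log2 fold changes of mt-Co2, mt-Co3, mt-Cytb, mt-Atp6, mt-Nd1, mt-Nd2, mt-Nd4 and mt-Co1 lay between -0.13 and 0.21, and those of mt-Nd5 and mt-Nd6 were -0.27 and -0.47, none of them called. mt-Nd3, a membrane subunit of complex I, fell from 1884 and 1618 to 878 and 1107 CPM (-0.75, SE 0.13, adjusted p = 6.65e-04), and mt-Nd4l from 424 and 279 to 180 and 211 (-0.78, SE 0.19, adjusted p = 0.0281). The nuclear genes that fell were Atp5k, a small membrane subunit of ATP synthase that helps it dimerise (241, 214, 117 and 145; -0.73, SE 0.16, adjusted p = 0.00474), and Ndufa3, a small membrane subunit of complex I (229, 222, 123 and 166; -0.58, SE 0.16, adjusted p = 0.0248). mt-Atp8 was at 248, 130, 81.2 and 86.2 and did not pass (-1.11, SE 0.48, adjusted p = 0.364). Without WT 1, 0 members were called lower.

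These falls were not particular to alveolar macrophage-like cells. Over the other 8 classes, 783 tests of members gave 24 calls lower and 0 higher with edgeR. At an unadjusted p under 0.05 there were 130 lower and 31 higher, and DESeq2 called 25 lower and 0 higher. Without WT 2 the calls were 40 lower and 9 higher, without knockout 2 they were 52 and 6, without knockout 1 they were 27 and 4, and without WT 1 they were 28 and 0. The 24 calls were of 7 genes: mt-Nd3 in 7 of the 8 classes, Ndufa3 in 5, mt-Nd4l, Atp5k and Cox7c in 3 each, mt-Atp8 in 2 and Ndufb2 in 1. By class they were 4 of 101 members in classical monocyte-like cells (0.358% of all genes), 3 of 96 in nonclassical monocyte-like cells (0.47%), 0 of 89 in neutrophil-like cells (0.153%), 4 of 100 in NK cell-like cells (0.497%), 3 of 101 in B cell-like cells (0.711%), 5 of 101 in CD4 T cell-like cells (0.391%), 4 of 101 in CD8 T cell-like cells (0.358%) and 1 of 94 in regulatory T cell-like cells (0.26%). Of the 24 calls, 12 were kept without WT 1, 20 without WT 2, 19 without knockout 1 and 24 without knockout 2. In the order above, 0.0924, 0.181, 0.136, 0.109, 0.0515, 0.0806, 0.0977 and 0.0173% of all genes were called higher. In neutrophil-like cells 6 members were lower and 3 higher at an unadjusted p under 0.05, and DESeq2 called 0.

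Of these 7 genes, all but Ndufb2 are plotted by library here, a choice made after their values were seen. In B cell-like cells mt-Nd3 was at 2457, 1988, 1075 and 1313 CPM (log2 fold change -0.95, SE 0.14, adjusted p = 0.00371), and Atp5k at 199, 136, 63.7 and 80.9 (-1.26, SE 0.19, adjusted p = 0.0271). In CD4 T cell-like cells Ndufa3 was at 199, 181, 101 and 117 (-0.90, SE 0.14, adjusted p = 8.94e-04), and in NK cell-like cells Cox7c, a small complex IV subunit, was at 635, 631, 345 and 448 (-0.68, SE 0.14, adjusted p = 0.00988). Both knockout libraries lay below both WT libraries in 8 of 9 classes for mt-Nd3, mt-Nd4l, mt-Atp8 and Cox7c and in 9 of 9 for Atp5k and Ndufa3. The 4 libraries stood in the order WT 1, WT 2, knockout 2, knockout 1 from high to low in 6 to 9 of the 9 classes for each of the 6 genes. The classes come from the same 4 libraries. Neither this agreement nor the calls over several classes given above are therefore independent repeats of the comparison.

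**Figure D4:**
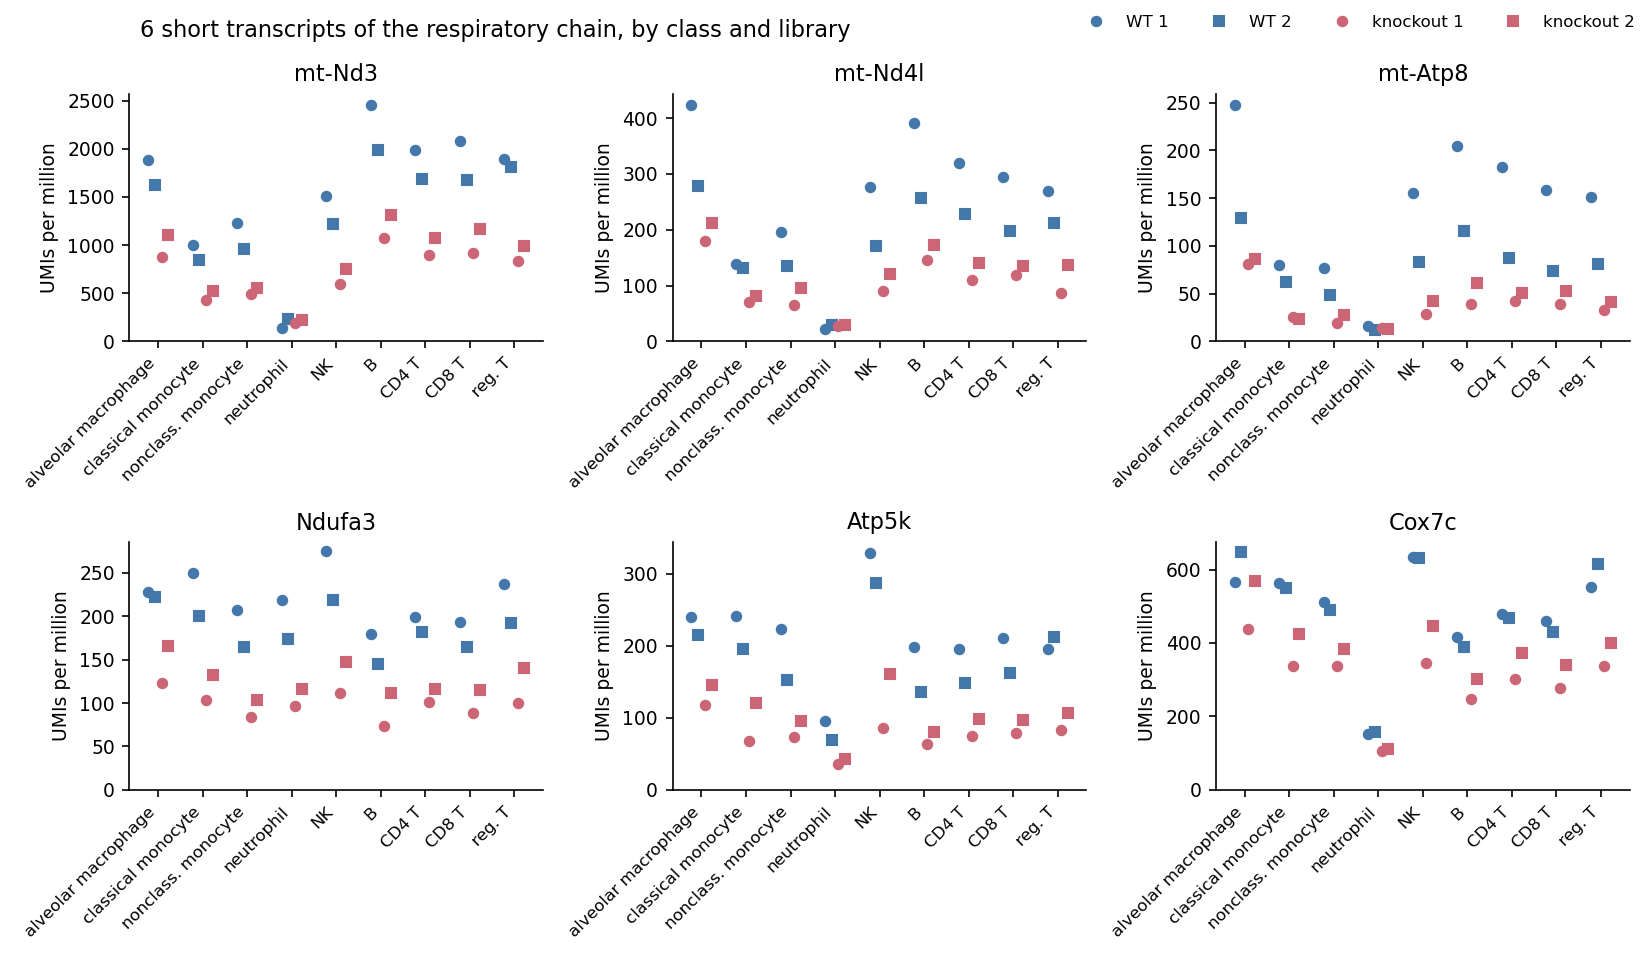
CPM of mt-Nd3, mt-Nd4l, mt-Atp8, Ndufa3, Atp5k and Cox7c in 9 classes, 1 point per library (blue WT, red knockout; circle library 1, square library 2). In most classes the points step down from WT 1 to WT 2, knockout 2 and knockout 1, as for mt-Nd3 in B cell-like cells from 2457 to 1075; neutrophil-like cells are the exception for the mitochondrial genes.

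Of the 7 genes called lower in the other classes, 6 had short annotated transcripts (median length). They had 348 bases for mt-Nd3, 297 for mt-Nd4l, 204 for mt-Atp8, 322 for Atp5k, 433 for Ndufa3 and 540 for Cox7c. For mt-Atp8 and mt-Nd4l this is the length of the gene, which runs into mt-Atp6 or mt-Nd4 on the same strand. Their RNA may thus be longer than annotated, and mt-Atp6 and mt-Nd4 were called in none of the 9 classes. The seventh, the complex I subunit Ndufb2, has 2413 by this median, which need not be the length of the transcript counted. Ndufb2 stood in the NK cell-like class at 114, 122, 54.8 and 76.7 CPM (log2 fold change -0.82, SE 0.17, adjusted p = 0.0127). Genes outside the list with transcripts under 400 bases, 19 to 34 of them per class, had median log2 fold changes between -0.43 and -0.78 in the 9 classes, and 4 to 9 of them were called lower and 0 higher. This range does not cover Ndufa3 and Cox7c: other genes of 400 to 600 bases had medians between -0.09 and 0.07, and the members of that length between -0.25 and 0.05. Most members of 400 to 600 bases were not called: of 24 to 29 tested per class, at most 2 were called lower. In alveolar macrophage-like cells 2 of that length were called higher, and in the other classes 0. Among the shortest, Ndufa6 (382 bases), Ndufa1 (419) and Atp5e (421) were called lower in 0 of 9 classes. Ndufa6 had log2 fold changes between -0.33 and -0.04, Ndufa1 between -0.58 and 0.015 and Atp5e between -0.52 and -0.024. Both knockout libraries lay below both WT libraries in 4 of 9 classes for Ndufa6 and in 8 of 9 for Ndufa1 and Atp5e. Across the members, length and log2 fold change correlated with a Spearman rho of 0.30 to 0.58 over 89 to 103 genes in each class, and across the other genes with one of -0.20 to -0.06. Genes of 1 class share their libraries and are not independent, so these are descriptions. Why genes with short annotated transcripts differed between these libraries was not tested.

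**Figure D5:**
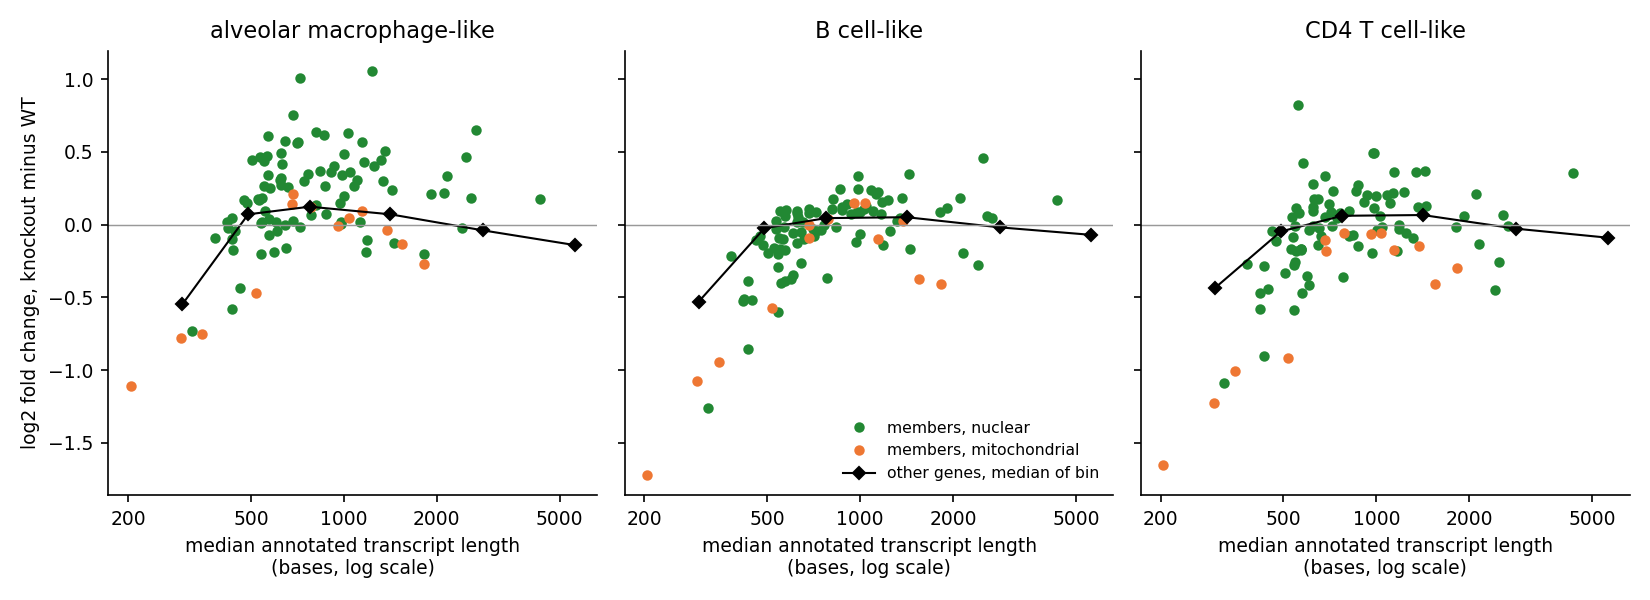
Log2 fold change (knockout minus WT) against the median annotated transcript length in bases (log axis) in alveolar macrophage-like, B cell-like and CD4 T cell-like cells: green, nuclear members; orange, mitochondrial members; black diamonds, median of all other genes in 6 length bins. The shortest members lie lowest, and the median of other genes under 400 bases is also below 0, at -0.55, -0.53 and -0.44.

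The difference between the knockout effect in alveolar macrophage-like cells and the mean effect in the other 8 classes was tested for the 94 members with enough UMIs. It was higher for 11 (1.57% of 6880 genes) and lower for 1 (2.43%), and 8 of the 11 were among the 14 called above. The 11 became 4 without WT 1 or without knockout 1 and 6 without knockout 2. The median difference of the members was 0.15 and that of all genes -0.07. Sdhd had the largest, 0.82 (SE 0.16, adjusted p = 0.00162), since its log2 fold changes in the other classes lay between -0.0033 and 0.25. Uqcrq was next at 0.60 (SE 0.12, adjusted p = 0.00184), with 245, 287, 319 and 370 CPM in alveolar macrophage-like cells and negative values in all 8 other classes. Ndufa4 was the one with a lower effect, at -0.42 (SE 0.12, adjusted p = 0.0279), with 435, 474, 376 and 264. With DESeq2's size factors in place of TMM, 16 members were higher and 0 lower, and over all genes the split moved from 108 higher and 167 lower to 145 and 116.

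Markers of other cell types in the alveolar macrophage-like cells differed between the libraries. The sum of 7 classical monocyte markers was 718 and 765 CPM in WT and 209 and 463 in knockout cells, and that of 8 interstitial macrophage markers 142, 126, 126 and 169. Malat1, a nuclear RNA used as a sign of cell integrity, fell from 15549 and 12023 to 7035 and 8285 (log2 fold change -0.78, adjusted p = 4.35e-04). The part of these differences in the results above was not tested.

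The promoters of the nuclear members are known to carry sites of NRF1, ETS factors such as GABP, and YY1. In RefSeq (GRCm38.p6) 78 of the 97 nuclear members had a promoter window of 300 bases, from 250 before to 50 after the start, 83 windows in all. On either strand the palindrome-like NRF1 motif (GCGCA, any base, then GCGC) stood in 26.5% of these windows against 4.60% of all 32851, CCGGAAG (ETS) in 25.3% against 8.86%, and AAGATGGCG (YY1) in 9.64% against 1.40%. No motif contains another, and CCGGAAG can run into AAGATGGCG. Of the 14 genes higher in knockout alveolar macrophage-like cells, 11 had 12 windows, of which 3, 5 and 1 held the motifs. The 250 bases before the start are shown for a pair of these genes, Ndufb6 (chr4:40279422-40279671, minus strand), with its ETS match in capitals, and Cox5a (chr9:57520982-57521231, plus strand), which has none of the 3 in this stretch.
Ndufb6: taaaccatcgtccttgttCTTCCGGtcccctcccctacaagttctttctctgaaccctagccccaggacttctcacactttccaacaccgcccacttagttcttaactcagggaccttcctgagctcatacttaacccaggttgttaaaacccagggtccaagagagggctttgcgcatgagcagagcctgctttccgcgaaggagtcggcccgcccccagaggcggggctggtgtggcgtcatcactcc
Cox5a: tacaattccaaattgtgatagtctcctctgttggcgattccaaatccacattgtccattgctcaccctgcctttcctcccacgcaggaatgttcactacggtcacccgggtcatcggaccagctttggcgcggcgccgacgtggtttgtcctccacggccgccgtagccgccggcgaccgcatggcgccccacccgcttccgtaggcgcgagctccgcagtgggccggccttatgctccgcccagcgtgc

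Genes that work beside the chain were followed as 4 further lists. Among 27 partners and assembly factors of complexes III and IV, 25 were tested in alveolar macrophage-like cells, and 1 rose and 1 fell, near the shares of all genes (3.57 and 2.99%). With DESeq2 0 of this list's genes were called in any of the 9 classes. Cycs, cytochrome c itself, went from 135 and 185 to 224 and 226 CPM (log2 fold change 0.57, SE 0.16, adjusted p = 0.0386), and the assembly factor Cox16 from 22.1 and 18.6 to 7.52 and 6.76 (-1.44, SE 0.43, adjusted p = 0.0429). Cox17, a copper chaperone of complex IV, fell in 5 of the other 8 classes, with log2 fold changes of -0.73 to -0.59, for instance from 237 and 224 to 148 and 157 in NK cell-like cells (adjusted p = 0.0195). Of 20 tested genes of the tricarboxylic acid cycle and pyruvate entry, the pyruvate carrier subunit Mpc2 rose (182, 242, 325 and 274; 0.57, adjusted p = 0.0311) and the mitochondrial isocitrate dehydrogenase Idh2 fell (76.8, 78.5, 39.1 and 38.9; -0.92, adjusted p = 0.0065) in alveolar macrophage-like cells. These counts too are near the shares of all genes, and DESeq2 called 1 higher and 0 lower, so the call of Idh2 was lost.

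The other lists gave no call between genotypes in these cells: 0 of 14 genes of complex I and ATP synthase assembly and control (0 also at an unadjusted p under 0.05 and by DESeq2) and 0 of 22 regulators of mitochondrial transcription, translation and biogenesis (2 at an unadjusted p under 0.05, 1 in each direction, and 0 by DESeq2). Between classes, alveolar macrophage-like cells were higher in 12 of 20 genes of the tricarboxylic acid cycle list and lower in 1, where 38.7 and 30% of all genes were called, with a median log2 difference of 0.50 against 0.05 over all genes. The regulators went both ways there, 10 of 23 higher and 9 lower, with a median of -0.01. The coactivators Ppargc1b (2.70, SE 0.20) and Pprc1 (1.49, SE 0.20) were among the higher ones, and the transcription factor genes Nrf1 (-0.93) and Tfam (-0.68) among the lower. The ATP synthase inhibitor Atpif1, of the control list, was higher (1.43, SE 0.08). Of the regulators 13 of 23 were higher in B cell-like cells, with 0 lower, and 13 in each of the CD4 and CD8 T cell-like classes, with 2 lower, where 39.8, 33.1 and 36.8% of all genes were called higher. In neutrophil-like cells 14 of 23 regulators were lower and 5 higher, and 14 of 20 genes of the tricarboxylic acid cycle list were lower and 4 higher, where 39.4 and 34.1% of all genes were called.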

How the data were processed

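Gene by cell UMI counts were deposited by the authors for each of 4 lung libraries, made with Cell Ranger 3.0.2 on mm10, per the submitters' processing notes, which also name Seurat 3.0.0; the aligner settings are not given in the sources used here. From these counts, a cell was kept if it had 200 or more genes and no more than 10% mitochondrial UMIs, and doublets were removed at 0.8% per 1000 cells. Cells were assigned to a class by marker scores (at least 0.25, a margin of 0.1 over the next list and 3 markers), and counts were summed per library and class. The 9 classes with at least 25 cells in every library were tested with edgeR 4.0.16 (quasi-likelihood, TMM, filterByExpr; R 4.3.3) and Benjamini-Hochberg adjustment over all genes, called at 0.05. Class contrasts had library as a block, and the difference of knockout effects used genes with at least 10 UMIs in every class. DESeq2 1.42.0, other scalings, filters, gates and leaving out each library were alternatives. The tests were run on simulated counts with independent genes and a fixed dispersion. Those counts lack a shift shared by many genes of a library, so they check how the fits run and not the calls here. CPM (counts scaled to 1000000 UMIs) serve as levels, compared within a gene.

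The members, marker lists, gene lists and tests were chosen with earlier results of these data known. Named genes were every mitochondrial member, the members called between genotypes (at most 8 per direction by p), those among the 6 largest fold changes per direction in a class contrast, up to 3 nuclear members per complex with the most UMIs in alveolar macrophage-like cells, paralog sets and Lmna; others were named after their values were seen. Replicate numbers in the labels were not found to pair the mice.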

Additional observations from a re-analysis of the deposited data

Results flagged for a closer look

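For 12 members the knockout effect in alveolar macrophage-like cells differed from the mean effect in the other 8 classes, by a test of the difference itself (edgeR, adjusted p under 0.05). On the log2 scale the difference was 0.8221 for Sdhd, 0.6035 for Uqcrq, 0.5918 for Ndufb6, 0.5261 for Cox7b, 0.5055 for Atp5g1 and 0.4862 for Atp5j. It was 0.4859 for Ndufs5, 0.425 for Cox5a, 0.3928 for Atp5f1, 0.3455 for Atp5e and 0.3131 for Atp5h. For Ndufa4 it was -0.4158. Of these, Sdhd, Ndufb6, Cox7b, Atp5g1, Atp5j, Cox5a, Atp5f1 and Atp5h were also called higher in knockout alveolar macrophage-like cells, and Uqcrq, Ndufs5, Atp5e and Ndufa4 were not called there.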

How the results depend on the processing

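The 14 members higher in knockout alveolar macrophage-like cells were 7 with doublets kept, 5 with DESeq2 and 1 to 15 when 1 library was left out, and all 14 stayed positive under every alternative run. The 4 lower ones were 2 when totals and scaling left out the mitochondrial genes, and 0 to 5 when 1 library was left out. In the other 8 classes, 0 higher became 4 without the filter on low counts, 1 with the replicate block and 0 to 9 leaving out a library, and 24 lower became 56 without the filter, 12 without the mitochondrial genes and 27 to 52 leaving out a library. With the replicate block 28 were lower and 14 of the 24 were kept, and with the length trend removed 19 were lower and 16 kept. The difference of effects gave 4 to 11 higher and 0 to 1 lower leaving out a library, and 0 lower with at most 20% mitochondrial UMIs or with DESeq2 size factors. Without mitochondrial genes in the totals, 12 members were higher in B cell-like and 23 in CD4 T cell-like cells, and 4, 16 and 9 lower in classical monocyte-like, nonclassical monocyte-like and NK cell-like cells. With at most 5% mitochondrial UMIs, 23 were higher in CD4 T cell-like cells, and 1, 9, 8 and 13 lower in classical monocyte-like, nonclassical monocyte-like, NK cell-like and CD8 T cell-like cells; the log2 knockout over WT of the summed share of mitochondrial members, alveolar macrophage-like, was -0.0933 there against -0.04. Regulatory T cell-like cells had 6 lower with DESeq2 size factors, and 11 to 16 higher and 6 to 12 lower leaving out a library. The replicate block gave 10 higher and 5 lower in alveolar macrophage-like cells; same-numbered libraries correlated at -0.05 to 0.18. Removing a trend over transcript length, chosen after seeing the data, gave 10 higher and 3 lower. That trend was a broad smooth over all genes tested in a class, few of them with very short transcripts. It may leave the shift of the shortest transcripts in place, so calls kept under it do not show independence of length. Of the values for single genes, 580 kept their direction and call and 151 kept their direction only. At the 5% limit the genotype comparison was not run for alveolar macrophage-like, B cell-like and regulatory T cell-like cells, which had too few cells. These classes were missing from the class contrasts at this limit as well. Each remaining class was thus compared with fewer classes than in the main fit, and its counts differ in this respect too. Apart from the removed mitochondrial genes, the cause was not tested.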
